A study of Mus musculus with 12 samples.

Results

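The CDK inhibitors are the 7 genes of the INK4 family (Cdkn2a, Cdkn2b, Cdkn2c and Cdkn2d) and of the CIP/KIP family (Cdkn1a, Cdkn1b and Cdkn1c). They were taken by gene name from 52550 annotated genes, and all 7 were found. Their RNA was followed in 12 RNA-seq libraries of the mouse breast cancer cell lines D2A1 and D2.OR, which come from separate hyperplastic alveolar nodule tumors of the D2 series, so that each line stands for 1 tumor. Each line was cultured in 2D, directly on plastic, or in 3D, seeded on top of growth-factor-reduced Matrigel (MoT) in a 3D medium. This medium was low in serum and held hydrocortisone, cholera toxin and insulin. The labels name no genetic change or agent. The methods put 2D cells in DMEM in the section they cite for the RNA cultures and in the 3D medium in the section on the 3D assay, so a difference of medium cannot be told apart from one of culture. The 4 groups (D2A1 2D, D2A1 3D, D2.OR 2D and D2.OR 3D) held 3 replicates each. D2.OR served as the dormant line, D2A1 as its proliferating counterpart, and the comparison asks which inhibitor genes vary with line and culture. RNA came from pooled wells, and 3D cells were first freed from Matrigel with a recovery solution.

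Cyclin-dependent kinases drive the passage from G1 into S phase when bound to their cyclins, and CDK inhibitors hold them back. INK4 proteins bind CDK4 and CDK6 and keep them from D-type cyclins, whereas CIP/KIP proteins bind cyclin and kinase together and block mainly the cyclin E and cyclin A complexes of CDK2. Cdkn2a also encodes p19Arf, an activator of p53 that is unrelated to the INK4 protein p16Ink4a and is made from another first exon spliced to a shared second exon.

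Library totals ranged from 47589611 to 73325069 expected counts. Replicate 1 of every group was batch 1 (lane 8), replicate 2 batch 2 (lane 6) and replicate 3 batch 3 (lane 7), so batch and lane cannot be told apart. The batch 1 libraries stood apart from the rest. In edgeR, 2234 of 16823 tested genes (13.3%) differed between batch 1 and the other batches at an adjusted p under 0.05, and none differed between batches 2 and 3. Of the 6 inhibitors tested, 4 differed. Cdkn2b was higher in batch 1 by 1.01 ± 0.20 on the log2 scale (SE, edgeR adjusted p = 0.0129), Cdkn1a by 0.88 ± 0.20 (adjusted p = 0.0216) and Cdkn2a by 0.51 ± 0.07 (adjusted p = 0.00359), while Cdkn2d was lower, by -0.46 ± 0.10 (adjusted p = 0.0151). The results are therefore given also without the 4 replicate 1 libraries, which leaves 2 replicates per group.

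The annotation behind the files holds 2 Cdkn2a transcripts. On GRCm38, the p19Arf transcript starts in exon 1 beta (chr4:89294334-89294653, minus strand, 320 bases), and the p16Ink4a transcript starts in exon 1 alpha (chr4:89281986-89282192, 207 bases), which lies in the first intron of the other. Both go on into the same exon 2 (chr4:89276645-89276985) and share 575 exonic bases. The join of each first exon (lower case) to exon 2 (capitals) is shown because it tells the 2 messages apart.
p19Arf transcript: ggaatcctggaccagGTGATGATGATGGGC
p16Ink4a transcript: cgtaccccgattcagGTGATGATGATGGGC

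The bases before the starts of Cdkn2a, Cdkn2b and Cdkn1a are shown because Cdkn2a was the most abundant inhibitor and Cdkn2b and Cdkn1a had the widest ratio of highest to lowest single library. They come from RefSeq promoters on GRCm38.p6, which held 6 of the 7 inhibitors, all but Cdkn1c, and they end before the first annotated exon. Capitals mark matches, on either strand, to 6 motifs: the GC box, the TATA box, the cAMP response element, the E box, the interferon-stimulated response element and the p53 half-site.
Cdkn2a before exon 1 beta (chr4:89294654-89294869, minus strand): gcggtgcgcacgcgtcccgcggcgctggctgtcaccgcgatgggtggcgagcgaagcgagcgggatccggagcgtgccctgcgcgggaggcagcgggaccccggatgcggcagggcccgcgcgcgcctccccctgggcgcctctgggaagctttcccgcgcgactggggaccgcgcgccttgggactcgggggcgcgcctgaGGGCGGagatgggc
Cdkn2a before exon 1 alpha (chr4:89282193-89282442, minus strand): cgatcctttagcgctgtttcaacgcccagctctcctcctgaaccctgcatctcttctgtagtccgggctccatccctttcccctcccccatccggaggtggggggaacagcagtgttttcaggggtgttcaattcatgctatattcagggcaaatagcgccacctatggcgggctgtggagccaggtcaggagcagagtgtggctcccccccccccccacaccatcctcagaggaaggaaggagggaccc
Cdkn2b (chr4:89311033-89311282, minus strand): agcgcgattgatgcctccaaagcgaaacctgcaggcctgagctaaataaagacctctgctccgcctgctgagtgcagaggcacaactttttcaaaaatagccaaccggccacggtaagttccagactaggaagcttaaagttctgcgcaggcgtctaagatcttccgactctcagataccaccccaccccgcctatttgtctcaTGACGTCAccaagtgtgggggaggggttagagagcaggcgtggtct
Cdkn1a, upstream start (chr17:29090729-29090978, plus strand): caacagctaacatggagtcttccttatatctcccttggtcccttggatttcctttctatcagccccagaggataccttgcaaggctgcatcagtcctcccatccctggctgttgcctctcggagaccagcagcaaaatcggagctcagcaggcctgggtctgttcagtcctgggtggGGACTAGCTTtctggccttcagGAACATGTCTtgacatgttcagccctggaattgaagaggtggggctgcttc
The window before exon 1 beta was 78.7% G or C and held 35 CG pairs and 1 GC box (GGGCGG). It was shortened to 216 bases to end before the exon, and the full RefSeq window of 250 bases held 40 CG pairs and 2 GC boxes, a motif found in 32.7% of 32851 windows of that length. The window before exon 1 alpha was 60.0% G or C with 7 CG pairs and matched none of the 6 motifs. The Cdkn2b window held 1 cAMP response element (TGACGTCA, 1.55% of windows). The window at the upstream Cdkn1a start held 2 p53 half-sites, a motif found in 7.13% of windows, and that at the second RefSeq start of Cdkn1a (chr17:29093519-29093768) held none and 2 GC boxes. The E box (CACGTG) was found in 6.02% of windows, the TATA box (TATAAA) in 12.4% and the interferon-stimulated response element (GAAANNGAAA) in 2.98%. A match describes the letters only.

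Cdkn2a was the most abundant inhibitor in all 4 groups. In TPM, which corrects for transcript length, it ranked between 201 and 636 among all genes of a library and made up 49.3% to 70.4% of the summed inhibitor TPM. Cdkn2c was next in both D2A1 groups, Cdkn2b in D2.OR 2D and Cdkn1a in D2.OR 3D. Cdkn2d, the gene of p19Ink4d, was lowest or next to lowest of the 6 detected genes in each group, with means of 27.1 to 36.1 TPM. Cdkn1c was at or under 2 counts in every library. In RNA from whole cultures, fewer cells that express an inhibitor and less of its RNA per cell cannot be told apart. Ordered by mean, neighboring groups overlapped in their libraries for every inhibitor except at 2 steps, Cdkn2c between D2A1 2D and D2.OR 3D and Cdkn1b between D2.OR 2D and D2.OR 3D.

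**Figure D1:**
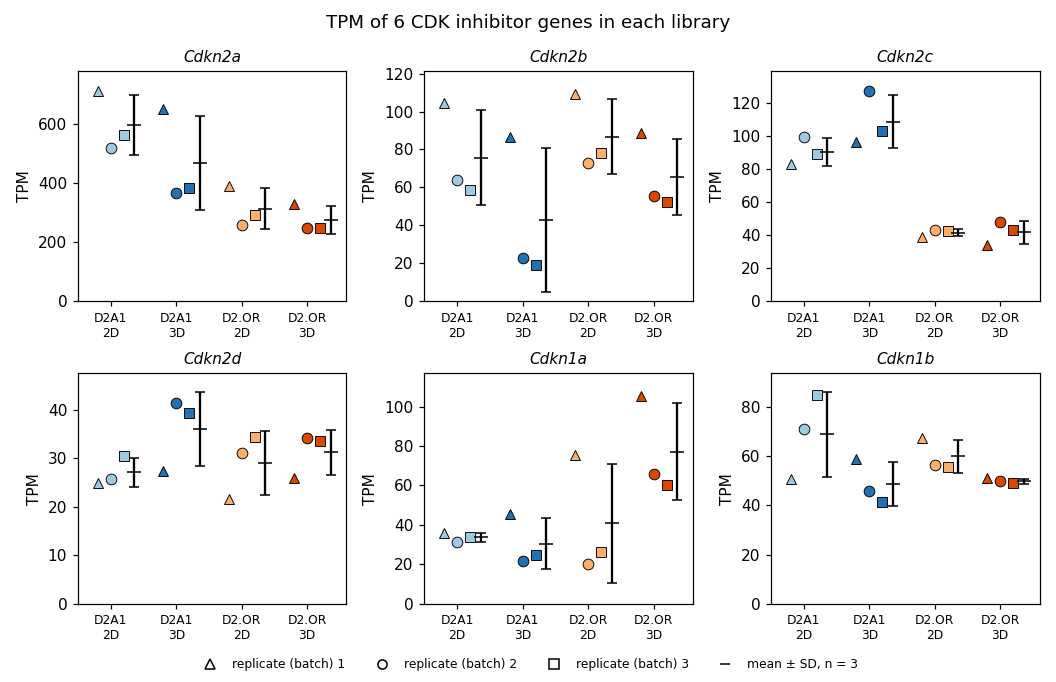
Each panel plots the TPM of 1 inhibitor gene (y axis, linear from 0) in the 12 libraries by group, with the replicate (batch) as marker shape and the mean ± SD of 3 replicates beside it. The batch 1 library is the highest of every group for Cdkn2a, Cdkn2b and Cdkn1a and the lowest of every group for Cdkn2c and Cdkn2d.

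Cdkn2a (GRCm38 chr4:89274471-89294653, minus strand) was lower in D2.OR than in D2A1 in both cultures. D2A1 had 711, 516 and 561 TPM in replicates 1, 2 and 3 of 2D and 651, 367 and 382 TPM in 3D. D2.OR had 389, 256 and 290.4 TPM in 2D and 329, 246 and 246 TPM in 3D. The lines did not overlap within either culture. In edgeR the log2-fold change of D2.OR against D2A1 was -0.81 ± 0.10 in 2D (SE, 1.75-fold lower, adjusted p = 0.000158) and -0.77 ± 0.10 in 3D (1.71-fold lower, adjusted p = 0.000185). Within batches 1, 2 and 3 it was -0.74, -0.86 and -0.82 in 2D and -1.02, -0.62 and -0.67 in 3D. Between cultures, the log2-fold change of 3D against 2D was -0.27 ± 0.09 in D2A1 (edgeR adjusted p = 0.0950) and -0.24 ± 0.09 in D2.OR (adjusted p = 0.236), and it was below 0 in all 3 batches of both lines. Without replicate 1, Cdkn2a was lower in D2A1 3D (-0.37 ± 0.08, edgeR adjusted p = 0.0127), and its value in D2.OR was -0.17 ± 0.08 (adjusted p = 0.243). Leaving out D2A1 3D replicate 1 alone also gave the call in D2A1 (adjusted p = 0.0452). The genes most like Cdkn2a over the 12 libraries, by Pearson correlation of log2 CPM among 12710 genes, were Washc2 (r = 0.983), Ttc1 (r = 0.974) and Mansc1 (r = 0.973). These and the correlations below are over libraries that share batches and groups.

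Nearly all Cdkn2a RNA was assigned to the p19Arf transcript, as the transcript length that RSEM weights by abundance shows. The p19Arf transcript has 895 bases and the p16Ink4a transcript 852, and the weighted length was 894.96 to 895.00 bases in the 12 libraries. This puts about 99.9% or more of the estimated Cdkn2a molecules on the p19Arf transcript in every library. The highest estimate of the p16Ink4a transcript, before rounding is allowed for, was 0.331 TPM. The lengths are deposited to 2 decimals, worth 0.0116 percentage points of share to either side. The p16Ink4a share was estimated at 0 to 0.0930%, so some libraries differed by more than this rounding. At these levels the share was not compared between groups. As far as RSEM divided the reads, the Cdkn2a values describe p19Arf RNA in both lines and cultures, and they do not measure either protein.

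**Figure D2:**
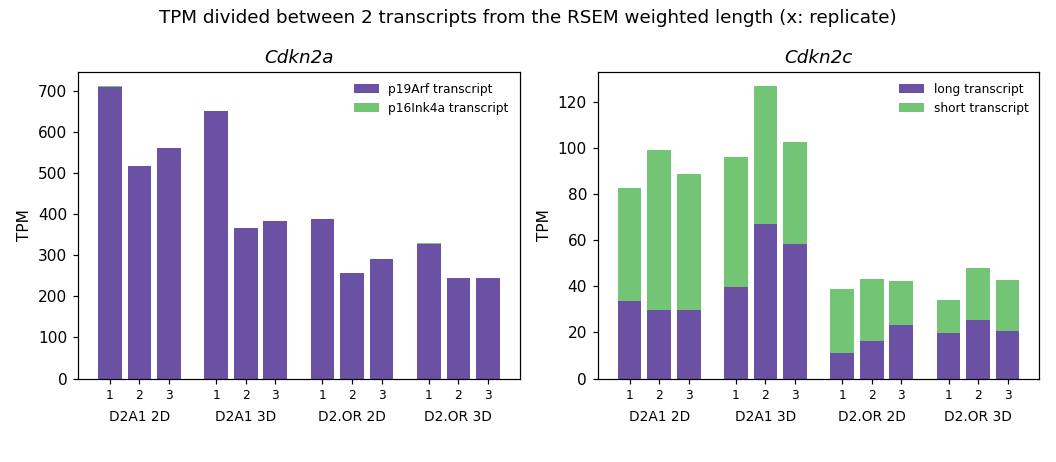
Bars plot TPM (y axis, linear from 0) of Cdkn2a and Cdkn2c in each library, divided between the 2 annotated transcripts of each gene. The p16Ink4a part of Cdkn2a is too thin to be seen, and the long Cdkn2c transcript takes between 28.5% and 57.8%.

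Cdkn2b (GRCm38 chr4:89306289-89311032, minus strand), which encodes p15Ink4b and lies beside Cdkn2a on chromosome 4, was lowest in D2A1 3D in batches 2 and 3. D2A1 had 104, 63.9 and 58.7 TPM in 2D and 86.7, 22.8 and 18.96 TPM in 3D. D2.OR had 109, 72.7 and 78.2 TPM in 2D and 88.8, 55.3 and 52.5 TPM in 3D. Batch 1 was the highest of each group, and the groups overlapped in every comparison. In edgeR, Cdkn2b was 1.78-fold higher in D2.OR than in D2A1 in 3D (log2-fold change 0.83 ± 0.27, adjusted p = 0.0293), with 0.01, 1.24 and 1.44 within batches 1, 2 and 3. Without replicate 1 it was 1.34 ± 0.11 (adjusted p = 9.18e-05). The call ended without the replicate block (edgeR adjusted p = 0.328), without replicate 2 (0.248) or 3 (0.210), and when replicate 2 or 3 of D2A1 3D (0.129 and 0.121) or of D2.OR 3D (0.0874 and 0.0876) was left out.

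In 2D the difference of Cdkn2b between lines was 0.37 ± 0.27 (edgeR adjusted p = 0.282), and 0.44 ± 0.11 without replicate 1 (adjusted p = 0.0138). Leaving out D2A1 3D replicate 1 alone gave that call too (adjusted p = 0.0178). Between cultures, the log2-fold change of Cdkn2b in 3D against 2D was -0.94 ± 0.27 in D2A1 (edgeR adjusted p = 0.0670) and -0.48 ± 0.27 in D2.OR (adjusted p = 0.383), below 0 in all 3 batches of both lines. Without replicate 1 it was lower in 3D in D2A1 (-1.40 ± 0.11, edgeR adjusted p = 0.000358) and in D2.OR (-0.51 ± 0.11, adjusted p = 0.0388). Leaving out D2A1 3D replicate 1 alone gave both calls (adjusted p = 0.000487 and 0.0429), and leaving out D2A1 2D replicate 1 gave that of D2A1 (0.0436).

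The 3 genes most like Cdkn2b were Ifit1 (r = 0.991), Rtp4 (r = 0.988) and Trim21 (r = 0.987), which are all known as interferon-induced genes. Over the 8 libraries without replicate 1, r was 0.991 for Ifit1, 0.988 for Rtp4 and 0.992 for Trim21. Ifit1 had 248, 88.5 and 97.6 TPM in D2A1 2D, 163, 9.38 and 8.15 in D2A1 3D, 389, 122.8 and 144 in D2.OR 2D and 138, 64.5 and 54.5 in D2.OR 3D. Like Cdkn2b, it was highest in batch 1 of each group and lowest in batches 2 and 3 of D2A1 3D. The Cdkn2b window shown above held no interferon-stimulated response element.

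**Figure D3:**
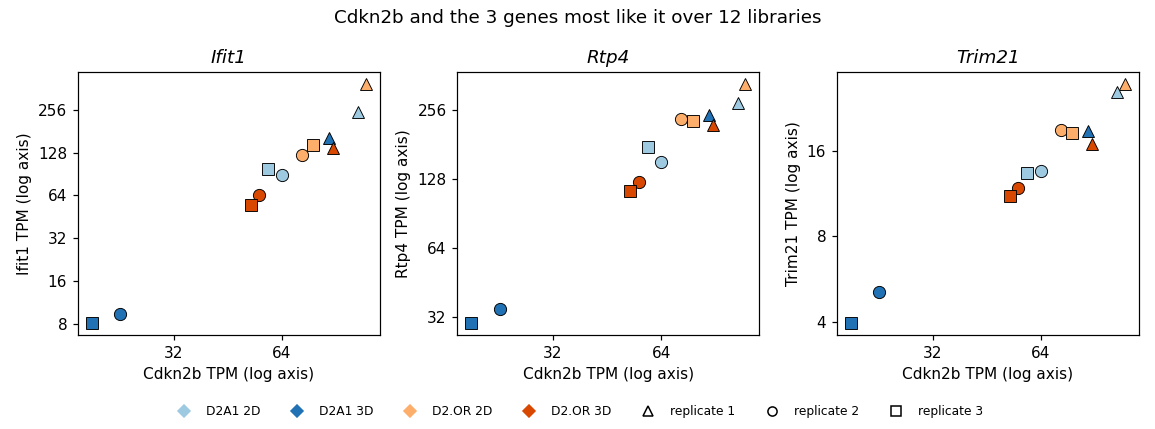
Each panel plots the TPM of Ifit1, Rtp4 or Trim21 against the TPM of Cdkn2b in the 12 libraries, both on log axes, colored by group and shaped by replicate. The batch 2 and 3 libraries of D2A1 3D lie at the low end of every panel.

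Cdkn2c (GRCm38 chr4:109660876-109667189, minus strand), which encodes p18Ink4c, was the other INK4 gene that separated the lines. D2A1 had 82.7, 99.4 and 88.8 TPM in 2D and 96.2, 127 and 103 TPM in 3D. D2.OR had 38.9, 43.1 and 42.3 TPM in 2D and 34.0, 48.0 and 42.9 TPM in 3D. Every D2.OR library was below every D2A1 library, and the cultures of each line overlapped. In edgeR the log2-fold change of D2.OR against D2A1 was -0.92 ± 0.13 in 2D (1.89-fold lower, adjusted p = 0.000368) and -1.39 ± 0.13 in 3D (2.62-fold lower, adjusted p = 3.24e-05). Cdkn2c was higher in 3D than in 2D in D2A1 (0.57 ± 0.12, edgeR adjusted p = 0.0472), with 0.25, 0.82 and 0.66 within the batches. In D2.OR the value was 0.10 ± 0.12 (edgeR adjusted p = 0.729). The call in D2A1 was kept without replicate 1 (0.74 ± 0.12, adjusted p = 0.00375) and lost in 15 of 21 alternatives, among them the fit without the replicate block (adjusted p = 0.0927) and those without replicate 2 (0.516) or 3 (0.538). It was also lost when any 1 library of D2.OR, or replicate 2 or 3 of either D2A1 group, was left out. Cdkn2c was most like Higd1a (r = 0.984), the heterochromatin protein gene Cbx3 (r = 0.983) and the exon junction gene Eif4a3 (r = 0.983).

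Cdkn2c has 2 annotated transcripts, of 2471 bases (first exon chr4:109665610-109667189) and 1106 bases (first exon chr4:109665018-109665372), which share their last exon. The long transcript took 40.8%, 29.9% and 33.3% of the estimated molecules in D2A1 2D and 41.3%, 52.97% and 56.9% in D2A1 3D. In D2.OR it took 28.5%, 37.7% and 55.0% in 2D and 57.8%, 52.5% and 47.8% in 3D. The cultures did not overlap in D2A1, although batch 1 differed by under 1 percentage point, and they overlapped in D2.OR. In D2A1 the long transcript had 31.0 ± 2.33 TPM in 2D and 55.1 ± 14.1 TPM in 3D (SD, n = 3), and the short one 59.3 ± 10.4 and 53.5 ± 8.15 TPM. These shares were not tested, and counts, unlike TPM, grow with the share of the longer transcript. In limma on log2(TPM + 1) the culture difference of Cdkn2c in D2A1 was 0.26 (adjusted p = 0.0901).

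Cdkn2d (GRCm38 chr9:21288410-21291407, minus strand), the remaining INK4 gene, varied the least among libraries of the 6 detected genes. D2A1 had 25.0, 25.8 and 30.4 TPM in 2D and 27.4, 41.5 and 39.4 TPM in 3D. D2.OR had 21.6, 31.2 and 34.3 TPM in 2D and 25.9, 34.2 and 33.6 TPM in 3D. The groups overlapped in every comparison. The log2-fold change of D2.OR against D2A1 was 0.21 ± 0.13 in 2D (edgeR adjusted p = 0.202) and -0.24 ± 0.12 in 3D (adjusted p = 0.126). Between cultures it was 0.52 ± 0.13 in D2A1 (edgeR adjusted p = 0.0528) and 0.07 ± 0.12 in D2.OR (adjusted p = 0.812). Without replicate 1, Cdkn2d was higher in 3D in D2A1 (0.69 ± 0.12, edgeR adjusted p = 0.00430) and higher in D2.OR in 2D (0.33 ± 0.12, adjusted p = 0.0452), and leaving out D2A1 2D replicate 1 alone gave both calls (adjusted p = 0.00417 and 0.0320). The culture call also came without D2A1 3D replicate 1 (adjusted p = 0.0278). Cdkn2d was most like Ints5 (r = 0.932), Agpat1 (r = 0.931) and Msantd3 (r = 0.930).

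Cdkn1a (GRCm38 chr17:29090979-29100722, plus strand), which encodes p21, a CIP/KIP inhibitor and p53 target, was highest in D2.OR 3D. D2.OR had 75.6, 20.4 and 26.3 TPM in 2D and 105, 65.7 and 60.4 TPM in 3D. D2A1 had 35.9, 31.4 and 33.9 TPM in 2D and 45.4, 21.5 and 24.6 TPM in 3D. Every D2.OR 3D library was above every D2A1 library, while the batch 1 library of D2.OR 2D lay far above its replicates and within the range of D2.OR 3D. In edgeR, Cdkn1a was 2.53-fold higher in D2.OR than in D2A1 in 3D (log2-fold change 1.34 ± 0.27, adjusted p = 0.00288), with 1.18, 1.55 and 1.27 within batches 1, 2 and 3. In 2D the value was 0.20 ± 0.27 (edgeR adjusted p = 0.566), with 1.22, -0.46 and -0.23 within the batches.

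Between cultures, the log2-fold change of Cdkn1a in 3D against 2D was 0.99 ± 0.27 in D2.OR (edgeR adjusted p = 0.112), with 0.33, 1.65 and 1.17 within the batches. DESeq2 made the call (adjusted p = 0.0188), as did edgeR without replicate 1 (1.41 ± 0.13, adjusted p = 0.00237), without D2.OR 2D replicate 1 alone (0.0203) and without D2A1 2D replicate 1 alone (0.0441). In D2A1 the value was -0.14 ± 0.27 (edgeR adjusted p = 0.748), with 0.38, -0.37 and -0.34 within the batches. Trp53, which encodes p53, had 1292 to 2243 TPM in D2.OR and 13.9 to 20.2 TPM in D2A1. Mdm2, another p53 target, was higher in D2.OR by 0.41 ± 0.08 in 2D (edgeR adjusted p = 0.00227) and 0.49 ± 0.08 in 3D (adjusted p = 0.000807). These RNA levels measure neither p53 protein nor its activity. Among the genes most like Cdkn1a were Slc25a42 (r = 0.971) and the nuclear RNA Malat1 (r = 0.926).

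Cdkn1b (GRCm38 chr6:134920401-134925513, plus strand), which encodes p27, an inhibitor tied to quiescence, passed no test over all 12 libraries. D2A1 had 50.5, 71.2 and 84.7 TPM in 2D and 58.9, 45.7 and 41.5 TPM in 3D. D2.OR had 67.6, 56.5 and 55.7 TPM in 2D and 50.9, 49.8 and 48.9 TPM in 3D. The 3D libraries of D2.OR were all below its 2D libraries, and the other groups overlapped. The log2-fold change of 3D against 2D was -0.27 ± 0.20 in D2.OR (edgeR adjusted p = 0.504) and -0.46 ± 0.20 in D2A1 (adjusted p = 0.154), with 0.25, -0.55 and -0.99 within the batches of D2A1. Between lines it was -0.27 ± 0.20 in 2D (edgeR adjusted p = 0.281) and -0.09 ± 0.20 in 3D (adjusted p = 0.709). Without replicate 1, Cdkn1b was lower in D2A1 3D than in D2A1 2D (-0.78 ± 0.12, edgeR adjusted p = 0.00278) and lower in D2.OR 2D than in D2A1 2D (-0.55 ± 0.12, adjusted p = 0.00653), and leaving out D2A1 2D replicate 1 alone gave both calls (adjusted p = 0.00546 and 0.00981). The weighted transcript length was 2648 to 2891 bases in D2A1 and 2374 to 2538 bases in D2.OR, and with 3 annotated transcripts it cannot be turned into shares. Cdkn1b was most like the clock-controlled factor gene Dbp (r = 0.960), Zscan2 (r = 0.936) and Uckl1 (r = 0.934).

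Cdkn1c (GRCm38 chr7:143458339-143461050, minus strand), the imprinted gene of p57, was not detectable above the floor of 3 counts in any library. It had 1, 1 and 2 counts in D2A1 2D, 0, 0 and 1 in D2A1 3D, 0 in every library of D2.OR 2D and 0, 0 and 1 in D2.OR 3D, and was not tested. A count of 0 allows up to 0.0409 to 0.0630 CPM at these depths (3 counts per library), which covers counting error only. Nap1l4, a neighbor on chromosome 7, had means of 77.6 to 90.4 TPM. Of 10 listed neighbors of its imprinted domain, 6 were tested, and the 1 called between lines was the imprinted H19, higher in D2.OR in 2D (2.08 ± 0.64, edgeR adjusted p = 0.0238), a smaller share than the 49.8% of all genes called there. An annotated antisense RNA overlaps Cdkn1c and had 0 counts in all libraries.

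Counted over the 6 tested inhibitors, edgeR called 2 of 6 between lines in 2D (Cdkn2a and Cdkn2c, both lower in D2.OR) beside 49.8% of all genes, 24.4% lower. In 3D it called 4 of 6, with Cdkn1a and Cdkn2b higher and Cdkn2a and Cdkn2c lower, beside 53.8% of all genes, 27.7% higher and 26.1% lower. Between cultures it called 1 of 6 in D2A1 (Cdkn2c, higher in 3D) beside 3.48% of all genes, 1.37% higher. It called 0 of 6 in D2.OR beside 1.62% of all genes, where 2 inhibitors had an unadjusted p under 0.05 and DESeq2 called 1. The share of all genes with an unadjusted p under 0.05 was not taken, so such counts, here and below, show no excess. In D2A1, DESeq2 also called Cdkn2a (adjusted p = 0.0226), Cdkn2b (0.00916) and Cdkn2d (0.00382). DESeq2 called more genes at large than edgeR, 3512 against 586 of 16823 in D2A1 and 1174 against 273 in D2.OR. Of 6 genes, 2 or 4 called between lines is close to what these shares of all genes give. By TPM that did not overlap between groups, the counts were 2 of 6 between lines in 2D (52.8% of all genes), 3 of 6 in 3D (57.4%), 1 of 6 between cultures in D2.OR (20.6%) and 0 of 6 in D2A1 (24.8%). The median log2-fold change of the 6 was -0.04 and -0.17 between lines in 2D and 3D, -0.08 between cultures in D2.OR and -0.21 in D2A1, beside 0.00 for all genes in each.

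Without replicate 1, edgeR called 5 of 6 between lines in 2D beside 53.8% of all genes and 4 of 6 in 3D beside 56.9%. Between cultures it called 5 of 6 in D2A1 beside 36.3% of all genes (Cdkn2c and Cdkn2d higher in 3D, Cdkn2a, Cdkn2b and Cdkn1b lower) and 2 of 6 in D2.OR beside 8.38% (Cdkn1a higher, Cdkn2b lower).

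**Figure D4:**
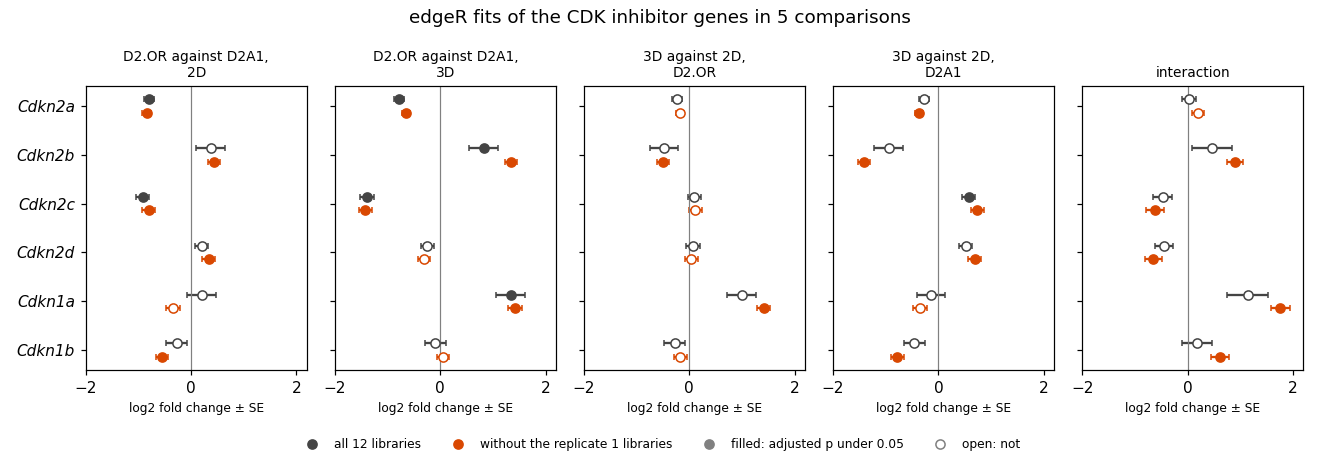
Points plot the edgeR log2-fold change ± SE (x axis) of 6 inhibitors in 5 comparisons, with all 12 libraries and without the 4 replicate 1 libraries, filled where the adjusted p was under 0.05. Filled points go from 1 to 5 for 3D against 2D in D2A1 and from 0 to 5 for the interaction when replicate 1 is left out.

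The interaction asks whether the change from 2D to 3D differed between the lines. With all libraries, edgeR called 0 of 6 inhibitors beside 0.0238% of all genes, 3 had an unadjusted p under 0.05, and DESeq2 called 0. Cdkn1a had the highest value, 1.14 ± 0.38 (D2.OR minus D2A1, edgeR adjusted p = 0.194), with -0.05, 2.01 and 1.504 within the batches. Cdkn2c had -0.48 ± 0.18 (edgeR adjusted p = 0.220) and Cdkn2d -0.45 ± 0.18 (adjusted p = 0.239), both below 0 in all 3 batches. Cdkn2b had 0.46 ± 0.38 (edgeR adjusted p = 0.539), Cdkn1b 0.18 ± 0.28 (adjusted p = 0.758) and Cdkn2a 0.03 ± 0.13 (adjusted p = 0.921).

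Without replicate 1, the interaction was called for 5 of 6 inhibitors beside 17.8% of all genes. Cdkn1a had 1.76 ± 0.18 (edgeR adjusted p = 0.00312), Cdkn2b 0.90 ± 0.16 (adjusted p = 0.0125) and Cdkn1b 0.61 ± 0.17 (adjusted p = 0.0461). Cdkn2d had -0.65 ± 0.16 (edgeR adjusted p = 0.0370) and Cdkn2c -0.62 ± 0.17 (adjusted p = 0.0472), and Cdkn2a, not called, 0.19 ± 0.12 (adjusted p = 0.294). The Cdkn2c interaction rests on counts, which grow with the share of its longer transcript, and the part of that share was not tested. In TPM, Cdkn2c went from 99.4 to 127 and from 88.85 to 103 in batches 2 and 3 of D2A1. In D2.OR it went from 43.1 to 48.0 and from 42.3 to 42.9. Leaving out D2A1 2D replicate 1 alone gave the calls of Cdkn1a, Cdkn2c and Cdkn2d (edgeR adjusted p = 0.0252, 0.0301 and 0.0340), and leaving out D2A1 3D replicate 1 gave that of Cdkn2b (0.0189).

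Among the partners that the inhibitors bind, Cdk4 had 464 to 593 TPM and Cdk6 22.9 to 40.5 TPM over the 12 libraries. Of 12 cyclins and kinases listed, 11 were tested and Ccna1, the germ cell cyclin A, was at or under 0.02 TPM. Between lines in 2D, 3 were higher in D2.OR in edgeR (Ccnd1, Cdk2 and Cdk4) and 1 lower (Ccnd2), and in 3D 1 was higher (Ccnd1) and 4 lower (Ccnd2, Ccne1, Ccna2 and Ccnb1), with a list median log2-fold change of 0.17 in 2D and -0.29 in 3D beside 0.00 over all genes. These counts do not exceed the 49.8% and 53.8% of all genes called. Ccnd2, a D-type cyclin, had means of 91.5 and 74.6 TPM in D2A1 2D and 3D and 1.01 and 0.590 TPM in D2.OR, a log2-fold change of -6.70 ± 0.17 in 2D (edgeR adjusted p = 3.06e-08) and -6.81 ± 0.17 in 3D (adjusted p = 2.91e-08). Of those not called, Ccnd3 had means of 126 to 153 TPM, Ccne2 6.41 to 16.9 TPM and the mitotic kinase gene Cdk1 115 to 225 TPM. Ccnd1 had means of 103 and 105 TPM in D2A1 and 175 and 192 TPM in D2.OR (1.01 ± 0.27 in 2D, edgeR adjusted p = 0.0131, and 0.89 ± 0.27 in 3D, adjusted p = 0.0196). Between cultures edgeR called 0 of the 11 in either line, with an unadjusted p under 0.05 for 6 in D2A1 and 1 in D2.OR, a threshold for which no share of all genes was taken. When replicate 1 was left out, 7 were higher and 1 lower in D2.OR in 2D (list median 0.40) and 3 were higher and 5 lower in 3D, beside the 53.8% and 56.9% of all genes called in those fits. Between cultures 7 were then higher in D2A1 3D, beside 36.3% of all genes called, and 0 were called in D2.OR, beside 8.38%.

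Relative to these kinases, the summed INK4 RNA was lower in D2.OR. The summed TPM of the 4 INK4 genes over that of Cdk4 and Cdk6 was 1.55, 1.29 and 1.51 in D2A1 2D and 1.38, 0.954 and 0.890 in D2A1 3D. It was 0.947, 0.683 and 0.705 in D2.OR 2D and 0.836, 0.688 and 0.662 in D2.OR 3D. The lines did not overlap within either culture. Since p19Arf does not bind CDK4 or CDK6, the ratio was also taken without Cdkn2a. It was then 0.355 ± 0.00863 in D2A1 2D, 0.310 ± 0.0399 in D2A1 3D, 0.261 ± 0.0236 in D2.OR 2D and 0.245 ± 0.0163 in D2.OR 3D (SD, n = 3), again without overlap between lines within a culture, by a narrow margin in 3D. Among the remaining INK4 genes, only Cdkn2c was called lower in D2.OR with all libraries. Cdkn2b had the higher mean in D2.OR (86.7 against 75.6 TPM in 2D and 65.5 against 42.8 TPM in 3D), and Cdkn2d was not called between lines.

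The summed CIP/KIP TPM over that of Cdk2 was 2.40, 4.21 and 4.22 in D2A1 2D and 3.10, 1.93 and 1.77 in D2A1 3D. It was 4.66, 1.90 and 1.62 in D2.OR 2D and 4.19, 2.89 and 2.38 in D2.OR 3D. All groups overlapped. Within batches 2 and 3 this ratio was lower in 3D than in 2D in D2A1 and higher in D2.OR, and in batch 1 it went the other way in both lines. The ratios compare RNA and were not tested.

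**Figure D5:**
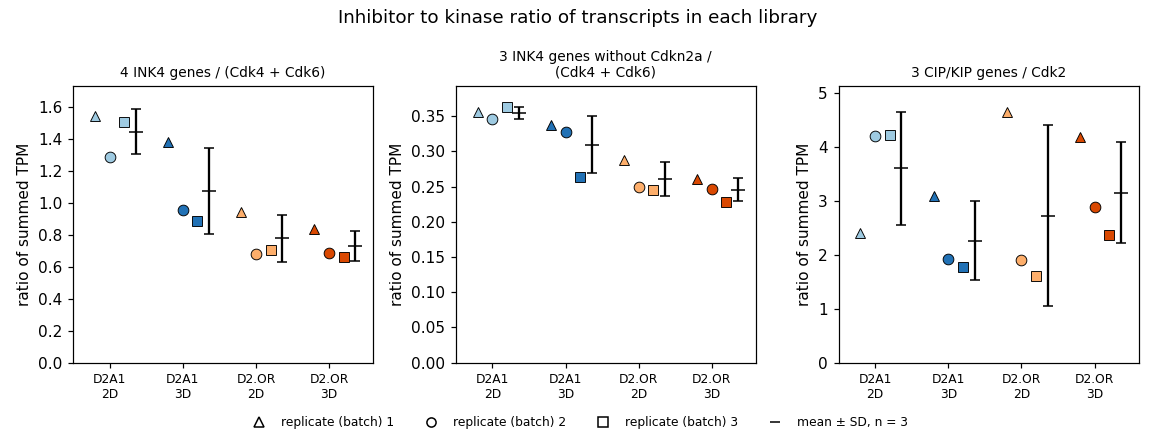
Each panel plots a ratio of summed TPM (y axis, linear from 0) in the 12 libraries by group, with the replicate as marker shape and the mean ± SD of 3 replicates beside it. The summed INK4 TPM per kinase is lower in D2.OR than in D2A1 within each culture with and without Cdkn2a, and the CIP/KIP ratio overlaps among all groups.

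The regulators and targets of the inhibitors were read from lists, whose counts stand beside 49.8% of all genes called between lines in 2D and 53.8% in 3D. Of 20 genes that regulate INK4 genes, 3 were higher and 9 lower in D2.OR in 2D in edgeR, and 3 were higher and 7 lower in 3D (medians -0.20 and -0.15), so that 12 and 10 of 20 were called, near those shares. Tbx3, a repressor of the Cdkn2a locus, had at most 0.01 TPM in D2.OR and 4.82 to 7.13 TPM in D2A1. Cbx2, a Polycomb reader, had a log2-fold change of -1.74 ± 0.12 in 2D (edgeR adjusted p = 7.93e-06) and -1.63 ± 0.12 in 3D (adjusted p = 1.04e-05). Bmi1, a Polycomb repressor of Cdkn2a, was higher in D2.OR in 2D (0.84 ± 0.12, edgeR adjusted p = 0.000488). Between cultures, 2 of the 20 were called in D2A1 and 1 in D2.OR, beside 3.48% and 1.62% of all genes. Id2, an inhibitor of helix-loop-helix factors, was higher in 3D in D2A1 (2.43 ± 0.46, edgeR adjusted p = 0.0381) and in D2.OR (3.69 ± 0.50, adjusted p = 0.0138), and Id1 in D2A1 (1.24 ± 0.16, adjusted p = 0.0184). Without replicate 1, 4 were higher and 5 lower in D2A1 3D and 2 higher and 1 lower in D2.OR 3D, beside 36.3% and 8.38% of all genes. Of 20 genes of CIP/KIP turnover and transcription, 5 were higher and 6 lower in D2.OR in 2D and 6 higher and 6 lower in 3D (medians -0.14 and 0.06), with Trp53 foremost (6.80 ± 0.21 and 5.96 ± 0.20, edgeR adjusted p = 6.77e-08 and 1.25e-07). Klf6, an activator of Cdkn1a, was higher in D2.OR in 2D (1.74 ± 0.15, edgeR adjusted p = 2.98e-05) and lower in 3D than in 2D in D2.OR (-0.77 ± 0.15, adjusted p = 0.0446). It was the only gene of its list called between cultures with all libraries. Without replicate 1, 4 of that list were higher and 9 lower in D2A1 3D and 1 was lower in D2.OR 3D, beside the same 36.3% and 8.38%.

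Downstream of the inhibited kinases, of 13 pocket protein and E2F genes 3 were lower in D2.OR in 2D, and in 3D 6 were lower and 2 higher (medians -0.26 and -0.43). Without replicate 1, 2 were higher and 2 lower in 2D (median -0.03) and 2 were higher and 8 lower in 3D, beside 53.8% and 56.9% of all genes called. Between cultures edgeR called 0 of the 13 in either line with all libraries (unadjusted p under 0.05 for 8 in D2A1 and 0 in D2.OR). Without replicate 1, 7 were higher and 3 lower in D2A1 3D, beside 36.3% of all genes called, and 0 were called in D2.OR, beside 8.38%. E2f2, an activating E2F factor, had a log2-fold change of -1.38 ± 0.24 in 2D (edgeR adjusted p = 0.00138) and -2.02 ± 0.24 in 3D (adjusted p = 0.000161). Of 8 listed neighbors of Cdkn2a and Cdkn2b, 6 were tested, and 2 were higher and 2 lower in D2.OR in each culture (medians 0.14 and 0.09). Mtap, the nearest other protein-coding gene, had means of 60.2 to 71.0 TPM and was not called with all 12 libraries. Without replicate 1 it was higher in D2.OR in 2D (0.65 ± 0.12, edgeR adjusted p = 0.00302) and higher in D2A1 3D than in D2A1 2D (0.50 ± 0.12, adjusted p = 0.0146).

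Other gene groups moved with the same comparisons, and their part in the inhibitor values was not tested. Their counts between lines stand beside 49.8% of all genes called in 2D (24.4% lower) and 53.8% in 3D (27.7% higher and 26.1% lower), and without replicate 1 beside 53.8% and 56.9%. Of 12 proliferation markers, 2 were lower in D2.OR in 2D and 7 in 3D in edgeR (medians -0.18 and -0.86). Without replicate 1 the direction in 2D turned, and 6 were higher and 2 lower in D2.OR (median 0.50), while in 3D 10 were lower (median -0.77). Between cultures, 3 were higher in D2A1 3D (Cdt1, Gmnn and Ccnb2, list median 1.04) and 0 were called in D2.OR (list median 0.25, unadjusted p under 0.05 for 1), beside 3.48% and 1.62% of all genes called. Leaving out replicate 1 gave 12 of 12 higher in D2A1 3D, beside 36.3% of all genes called, and 0 in D2.OR, beside 8.38%. Their summed TPM was 698 to 972 in D2A1 2D, 1111 to 1822 in D2A1 3D, 443 to 918 in D2.OR 2D and 651 to 1058 in D2.OR 3D. Of 8 mammary epithelial markers, 6 were tested, and 6 were higher in D2.OR in 2D and 4 in 3D. Their sums were 94.1 to 297 TPM in D2A1, 1165 to 1717 TPM in D2.OR 2D and 423 to 877 TPM in D2.OR 3D. Between cultures, 1 was lower in D2.OR 3D and 0 were called in D2A1. Without replicate 1, 3 were lower in D2.OR 3D, beside 8.38% of all genes called, and 1 was higher and 1 lower in D2A1 3D, beside 36.3%. Cdh1, which encodes E-cadherin, had at most 0.280 TPM in D2A1, so this epithelial marker was near 0 in that line. The keratin gene Krt18, also of this list, was not, with means of 263 and 136 TPM in D2A1 2D and 3D and 570 and 224 TPM in D2.OR. Of 8 fibroblast and mesenchymal markers, 7 were tested, and 5 were higher in D2.OR in 2D and 6 in 3D, with sums of 1619 to 3500.2 TPM in D2A1 and 3588 to 6538 TPM in D2.OR. Between cultures 0 of them were called in either line. Without replicate 1, 3 were lower in D2.OR 3D, and 1 was higher and 2 lower in D2A1 3D, beside the same 8.38% and 36.3%. The 6 immune markers, of which only Cd68 was tested, summed to 2.27 to 32.1 TPM over all libraries, and the 5 endothelial markers, of which 3 were tested, to 0.210 to 0.910 TPM.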

How the data were processed

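Per the labels, 4 groups of 3 libraries were sequenced, and replicate number equals batch. The authors aligned trimmed reads to GRCm38 and quantified them per library (FastQC 0.11.4, Trimmomatic 0.32, STAR 2.5.3, RSEM 1.3.0). The deposited values used were RSEM expected counts, TPM and abundance-weighted transcript lengths per gene. Expected counts (10.7% to 11.8% of genes not whole) were rounded. edgeR 4.0.16 (R 4.3.3, TMM, filterByExpr, quasi-likelihood) was fitted to all 12 libraries with group and batch, as the study's model had batch. It tested 16823 genes, and p-values were Benjamini-Hochberg adjusted over all of them (threshold 0.05). Shares of 2 transcripts were solved from the weighted length and GENCODE transcript lengths. Same-numbered libraries deviated together (r from 0.0758 to 0.511, median 0.267, 18 pairs), and the pairing comes from the batch in the labels. The study describes its repeats in general as biological. As no source used here says which cultures these libraries came from, p-values measure the spread between these libraries.

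Members and lists were chosen with earlier results of these data known. Named were all inhibitors, cyclins and kinases, up to 5 genes of smallest p per other list and comparison, and the 3 genes most like each inhibitor, of which 1 is not reported here. Mdm2 and the interferon-stimulated response element were chosen after their values were seen. Alternatives were no replicate block, DESeq2 1.42.0, limma 3.58.1 on log2 TPM, no filter, and libraries or batches left out. Fits without each replicate in turn were among these alternatives. The fits and list counts without replicate 1 were chosen for the text after seeing the data. They leave out the batch that had been seen to stand apart and keep fewer replicates, so their adjusted p-values carry less weight than those of all 12 libraries.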

Additional observations from a re-analysis of the deposited data

How the results depend on the processing

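Over 21 alternatives for each inhibitor and comparison, 552 values kept direction and side of the threshold, 35 gained the call, 22 lost it and 21 changed sign. The calls of Cdkn2a and Cdkn2c between lines in both cultures and of Cdkn1a between lines in 3D were kept under all 21. The replicate numbers pair the samples, and without the replicate block 20 genes were called between cultures in D2.OR, 52 genes and 0 inhibitors in D2A1 and 0 genes for the interaction. With DESeq2 the counts were 1174 genes and 1 inhibitor in D2.OR, 3512 genes and 4 inhibitors in D2A1 and 953 genes for the interaction. With limma on log2(TPM + 1), 0 inhibitors were called in D2A1 and 13 genes for the interaction, and with log2(TPM + 0.1) 1135 genes in D2A1 and 9 for the interaction. With no filter on low counts, 415, 1117 and 96 genes were called in D2.OR, D2A1 and the interaction. The cause was not tested.

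Leaving out 1 library or batch gave 2 to 5 inhibitors and 4227 to 9062 genes between lines in 2D, 3 to 4 inhibitors and 5273 to 10298 genes in 3D, 0 to 2 inhibitors and 0 to 1412 genes between cultures in D2.OR, 0 to 5 inhibitors and 0 to 6120 genes in D2A1, and 0 to 5 inhibitors and 0 to 2999 genes for the interaction.

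No value that changed sign had passed the test. Cdkn1b between lines in 3D was 0.0486 in limma with a pseudocount of 1 and 0.0497 with 0.1. Cdkn2c between cultures in D2.OR was -0.00630 and -0.00673. The Cdkn2a interaction without the replicate block was -0.00661. Over left-out libraries and batches, Cdkn1a between lines in 2D ran from -0.34 to 0.51, Cdkn1b between lines in 3D from -0.23 to 0.0831, Cdkn2c between cultures in D2.OR from -0.0118 to 0.19, Cdkn1a between cultures in D2A1 from -0.42 to 0.0143, and the interaction from -0.15 to 0.61 for Cdkn1b and from -0.0708 to 0.19 for Cdkn2a.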
